A study of Homo sapiens with 3 samples.

Results

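Kinesins and centromere proteins were examined in H660 cells, a human neuroendocrine prostate cancer line, after inhibition of the chaperone HSP70. Members were chosen by symbol alone, as KIF with a number and at most a letter and a digit, or CENP with 1 letter, and nothing more. This gave 61 of the 58735 genes in the table, 40 KIF genes and 21 CENP genes. All 3 libraries were from this line. The vehicle library was from cells given DMSO, and the others were from cells given JG231, an allosteric HSP70 inhibitor, at 2.5 μM or 5 μM for 24 h. Each condition was a single library (n = 1), so no value has a replicate error and no p-value is given. The authors deposited FPKM, a level scaled to transcript length and to library size, which can be compared between genes. Triplets of FPKM below are in the order DMSO, lower dose, higher dose.

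The labelled line was checked against its markers. All 5 neuroendocrine genes, SYP, CHGA, ENO2, NCAM1 and INSM1, were above 1 FPKM in every library, from 3.40 for NCAM1 at 5 μM to 46.0 for CHGA in DMSO. CHGA, a secretory granule protein, had 46.0, 15.0 and 12.7 FPKM. Of the luminal prostate genes KLK3, KLK2 and TMPRSS2, the highest value was 0.315 FPKM, for TMPRSS2 in DMSO, and KLK2 was listed at 0 in all 3 libraries. The label calls the cell type an adenocarcinoma of the prostate, and these luminal markers were at or near 0. Of 4 fibroblast and leukocyte markers, DCN and PTPRC were listed at 0 throughout and COL1A1 reached 1.27 FPKM at 5 μM. FPKM steps placed the depth at 16.1 M, 20.4 M and 24.04 M fragments, and 21862, 19352 and 17293 genes were above 0.

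Kinesins are motor proteins that use ATP to move along microtubules or to take their ends apart. One set of them builds the spindle, moves chromosomes and completes cytokinesis, and its genes are usually expressed together in G2 and mitosis. Another set carries vesicles, organelles and mRNA along axons and dendrites, and is abundant in neurons and neuroendocrine cells. Centromere proteins mark the site on each chromosome where the kinetochore forms. CENP-A replaces histone H3 there, a constitutive network of CENP proteins sits on it through the cell cycle, and CENP-E and CENP-F join the outer kinetochore in mitosis. The comparison of mitotic with neuronal kinesins addresses whether proliferation genes and neuronal genes respond alike to the inhibitor.

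A member was compared when its FPKM exceeded 1 in DMSO or in the treated library. The change was log2((JG231 + 0.1)/(DMSO + 0.1)) in FPKM, a scale that understates the change of low genes. Genes past 0.25 in either direction were called higher or lower. In place of a replicate error, a spread was taken from the difference between the JG231 libraries among the 500 genes closest in level to each member. This spread ran from 0.21 to 1.13 over the members on the log2 scale, and was widest for the lowest of them. It contains any real difference between the doses.

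In such bulk samples, fewer cells in mitosis and less RNA per cell cannot be told apart. At 5 μM, 26 of the 51 members compared were lower and 15 were higher. The shares were 51.0% and 29.4%, against 45.1% and 36.5% of all 15765 genes compared, and 39.6% and 38% of the protein-coding genes. At 2.5 μM, 25 of 50 members were lower and 12 were higher, against 43.4% and 36.4% of all genes and 37.2% and 38.3% of protein-coding genes. The shares of lower members were thus closer to those of all genes than to those of protein-coding genes, to which all members but KIF28P belong. With the trend of transcript length removed, 23 of 51 members and 7071 of 15765 genes were lower at 5 μM, and 21 of 50 members and 6974 of 15746 genes at 2.5 μM. Of the protein-coding genes 4471 of 11836 and 4388 of 11809 were then lower. The doses share their DMSO library. At both of them 21 of 50 members were lower, against 38.6% of all genes and 31.7% of protein-coding genes, and 10 were higher, against 27.9% and 31.3%. The change lay within the member's own spread for 18 members at 5 μM and for 22 at 2.5 μM. Some members changed by more than 1 on the log2 scale. At 5 μM 7 (13.7%) were lower by this measure and 3 higher, against 24.3% and 14.7% of all genes (15.3% and 12.4% of protein-coding genes). At 2.5 μM 6 (12%) were lower and 1 was higher, against 21.7% and 12.9% of all genes (12.4% and 10.7% of protein-coding genes). A member passed the comparison through only 1 of its libraries in 1 case at each dose, KIF9 at 5 μM and CENPS at 2.5 μM.

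**Figure D1:**
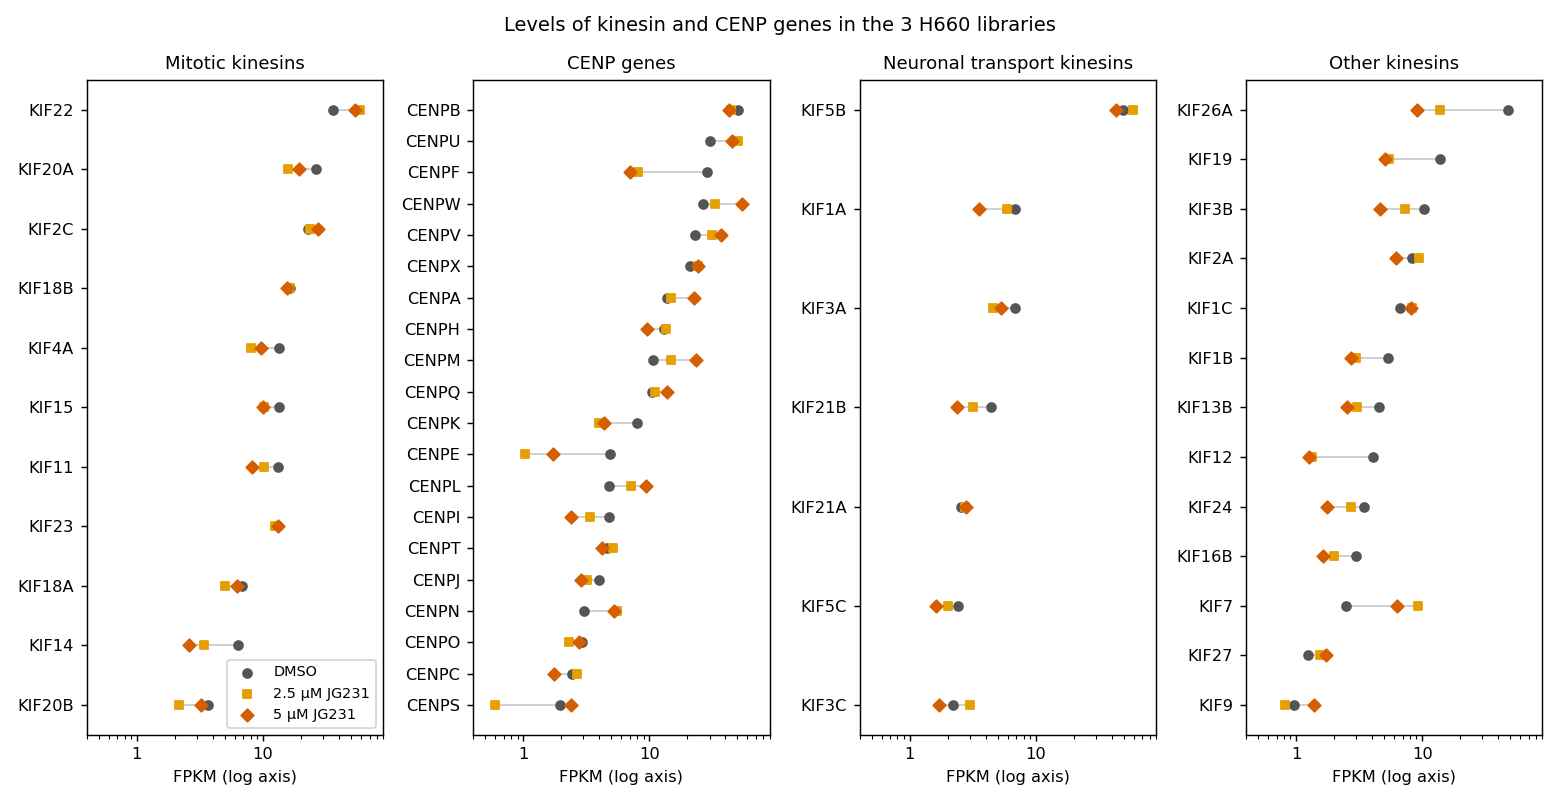
FPKM (log axis) of the 51 members that exceeded 1 FPKM in any library, in 4 groups, with circles for DMSO, squares for 2.5 μM and diamonds for 5 μM JG231, 1 library each. CENPF, KIF12 and KIF26A show the longest shifts to lower values at 5 μM, and KIF22, CENPU and CENPW lie to the right of their DMSO values.

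The 11 mitotic kinesins were expressed in every library, with a median level of 13.3 FPKM in DMSO. At 2.5 μM 7 of them were lower and KIF22 alone was higher. At 5 μM 5 were lower, 2 were higher and 4 lay within the threshold. The 5 of 11 lower at 5 μM were 45.5%, against 45.1% of all genes and 39.6% of protein-coding genes. The 7 at 2.5 μM were 63.6%, against 43.4% and 37.2%. The shares higher at 5 and 2.5 μM were 18.2% and 9.09%, against 36.5% and 36.4% of all genes. Their median change (log2) was -0.38 at the lower dose and -0.17 at the higher. Over all genes compared it was -0.08 and -0.11, and over protein-coding genes 0.01 and -0.01.

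KIF14, which acts at the midbody in cytokinesis, fell most among the mitotic kinesins at both doses. It had 6.39, 3.43 and 2.58 FPKM, log2 changes of -0.88 and -1.28 (spread 0.55). The gene (ENSG00000118193) lies on the minus strand of chromosome 1, from 200551497 to 200620751 on GRCh38. KIF11, the motor that pushes the spindle poles apart, had 13.2, 10.3 and 8.12 FPKM, so it was lowest at the higher dose. KIF15, which shares that task, had 13.3, 10.2 and 9.95 FPKM, nearly equal at both doses.

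KIF4A, a chromosome-bound motor of the central spindle, and KIF20A, which brings the chromosomal passenger complex there, were both lower and both had their lowest value at 2.5 μM. KIF4A had 13.4, 8.03 and 9.73 FPKM. KIF20A had 26.5, 15.9 and 19.3 FPKM. The log2 changes of KIF20A were -0.74 and -0.46 (spread 0.27). KIF20B, also a cytokinesis motor, had 3.66, 2.14 and 3.25 FPKM and was below the threshold at 5 μM. KIF18A, which damps chromosome movements at the plate, had 6.82, 5.01 and 6.21 FPKM, again lowest at 2.5 μM.

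The remaining mitotic kinesins were within the threshold or higher. KIF23, the motor subunit of centralspindlin, had 13.1, 12.4 and 13.1 FPKM. KIF18B, which shortens astral microtubules, had 16.3, 16.2 and 15.4 FPKM, and both were within the threshold. KIF2C, the depolymerase that corrects wrong attachments at centromeres, had 22.7, 23.5 and 27.5 FPKM. Its log2 change of 0.28 at 5 μM was little more than its spread of 0.25. KIF22, the chromokinesin that pushes chromosome arms towards the spindle equator, rose, with 36.2, 58.5 and 53.8 FPKM. Its log2 changes were 0.69 and 0.57 (spread 0.21), and the gene (ENSG00000079616) lies on chromosome 16 from 29790727 to 29805385. It has 33 annotated transcripts and a short canonical transcript of 2081 bp.

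The promoters of members that moved in different directions are shown because mitotic genes often carry CCAAT boxes, bound by NF-Y, and a cell cycle homology element, bound by the DREAM and B-MYB complexes. The sequences are from RefSeq on GRCh38.p14 and are written 5′ to 3′ on the gene's strand. Each is the 150 bases that end before the outermost annotated start of the gene. Capitals mark CCAAT, or ATTGG on the other strand, and TTTGAA, or TTCAAA on the other strand, and the motifs do not overlap. CENPF (chr1:214603035-214603184, plus strand), the largest fall among the CENP genes at 5 μM, has 3 CCAAT boxes in this window. The longer window of CENPF, described next, also holds TTTGAA or TTCAAA, but not in the 250 bases before the RefSeq start.
CENPF: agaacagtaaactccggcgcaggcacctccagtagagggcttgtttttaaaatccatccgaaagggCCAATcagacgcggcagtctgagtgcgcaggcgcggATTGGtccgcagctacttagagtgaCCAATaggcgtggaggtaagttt
KIF14 (chr1:200620752-200620901, minus strand), the largest fall among the mitotic kinesins, has 1. TTTGAA or TTCAAA likewise lies in its longer window, but not in the 250 bases before the RefSeq start.
KIF14: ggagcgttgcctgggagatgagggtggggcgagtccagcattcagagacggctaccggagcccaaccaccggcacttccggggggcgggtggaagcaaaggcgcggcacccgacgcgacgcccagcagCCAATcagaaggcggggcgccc
KIF4A (chrX:70289954-70290103, plus strand) holds both kinds of motif.
KIF4A: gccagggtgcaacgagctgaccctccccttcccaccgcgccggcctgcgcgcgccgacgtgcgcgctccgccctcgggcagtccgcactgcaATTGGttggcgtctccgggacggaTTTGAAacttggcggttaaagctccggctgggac
CENPW (chr6:126339965-126340114, plus strand), which was higher at both doses, has neither in these bases, and its CCAAT matches lie further upstream.
CENPW: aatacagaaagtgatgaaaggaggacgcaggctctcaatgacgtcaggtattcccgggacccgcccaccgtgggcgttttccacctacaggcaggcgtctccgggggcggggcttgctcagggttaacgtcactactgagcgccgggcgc
KIF5B (chr10:32056426-32056575, minus strand), the most abundant transport kinesin, holds both.
KIF5B: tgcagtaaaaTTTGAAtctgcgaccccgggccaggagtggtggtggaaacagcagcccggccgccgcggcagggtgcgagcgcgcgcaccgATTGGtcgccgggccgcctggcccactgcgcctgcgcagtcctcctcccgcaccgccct

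Over windows of 250 bases before and 50 after each RefSeq start, TTTGAA or TTCAAA was present for 8 of 11 mitotic kinesins, 5 of 17 CENP genes, 1 of 6 neuronal transport kinesins and 1 of 16 other kinesins. It was present for 18.2% of the 27305 genes with a promoter sequence and for 15.8% of the protein-coding ones. CCAAT or ATTGG was present for 9 of 11 mitotic kinesins, 10 of 17 CENP genes, 2 of 6 neuronal transport kinesins and 6 of 16 other kinesins, against 39.7% of all genes. Of the 11 mitotic kinesins, 7 held both kinds, against 7.26% of all genes. These 7 were KIF14, KIF11, KIF4A, KIF20B, KIF18A, KIF18B and KIF23. In that order their log2 changes at 5 μM were -1.28, -0.70, -0.46, -0.17, -0.13, -0.08 and 0.00. Of the mitotic kinesins without TTTGAA or TTCAAA, KIF22 and KIF2C were higher at 5 μM and KIF20A was lower. Whether the motifs bear on the changes was not tested. Promoters were matched by symbol for 50 of the 61 members. Not matched were CENPH, CENPJ, CENPL, CENPM, KIF5A, KIF13B, KIF19, KIF21B, KIF26B, KIF27 and KIF28P. A match is a description of letters, not of binding.

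Of the 21 CENP genes 20 were compared, and they split between rises and falls. At 5 μM 9 were higher and 7 lower, and at 2.5 μM 6 were higher and 7 lower. The shares at 5 μM were 45% and 35%, against 36.5% and 45.1% of all genes and 38% and 39.6% of protein-coding genes. At 2.5 μM they were 30% and 35%, against 36.4% and 43.4% of all genes and 38.3% and 37.2% of protein-coding genes. The balance at 5 μM turned with the processing, to 6 higher and 9 lower with the length trend removed, 8 and 9 with a common sum of FPKM, and 6 and 10 with a common sum without mitochondrial and small RNA genes. Their median change (log2) was 0.07 at the higher dose and 0.10 at the lower. CENPP, a network subunit, stayed below 1 FPKM in all libraries. The sum over all CENP genes was 270, 282 and 318 FPKM.

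CENPA, the histone H3 variant of centromeres, had 13.9, 14.9 and 22.4 FPKM. It was thus higher only at the higher dose, by 0.69 on the log2 scale (spread 0.27). CENPB, which binds a motif in alpha satellite DNA, was the most abundant member in DMSO. It had 50.8, 44.5 and 42.8 FPKM, and its changes of -0.19 and -0.25 in log2 units stayed just inside the threshold.

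The outer kinetochore members fell most among the CENP genes before the length trend was removed. With it removed, CENPK (-1.18) was below CENPE (-0.96) at 5 μM, and CENPS (-1.97) was below CENPE (-1.86) and CENPF (-1.46) at 2.5 μM. CENPF, a large coiled-coil protein of the kinetochore corona, had 28.5, 8.14 and 6.99 FPKM. The log2 changes were -1.79 and -2.01, several times its spread of 0.28. From about 5706, 2068 and 2094 fragments, the 95% counting interval (Clopper-Pearson) for the higher dose was -2.10 to -1.95 in log2 units. This interval covers counting error only, since amplified reads are not independent molecules. CENPF (ENSG00000117724) lies on the plus strand of chromosome 1 from 214603185 to 214664574. CENPE, a kinesin that carries chromosomes to the spindle equator, had 4.89, 1.03 and 1.71 FPKM. Both treated libraries were low, and the lower dose was the lowest. Its log2 changes were -2.14 and -1.46 (spread 0.61). CENPE (ENSG00000138778) lies on the minus strand of chromosome 4 from 103105349 to 103198445.

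Of the 15 genes of the constitutive network 14 were compared. At 5 μM 7 were higher and 4 lower, and at 2.5 μM 5 were higher and 4 lower. The shares higher were 50% and 35.7%, against 36.5% and 36.4% of all genes, and the share lower was 28.6% at each dose, against 45.1% and 43.4%. With the length trend removed 5 were higher and 6 lower at 5 μM. The network is built of subcomplexes that assemble as units, and within some of them the transcripts diverged.

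Both genes of the CENP-L and CENP-N pair, which contacts the CENP-A nucleosome, were higher. CENPL had 4.81, 7.16 and 9.34 FPKM. CENPN had 3.03, 5.57 and 5.28 FPKM. Their log2 changes at 5 μM were 0.94 and 0.78 against spreads of 0.35 and 0.43. The CENP-H, I, K and M subcomplex split. CENPI had 4.80, 3.35 and 2.38 FPKM, a stepwise fall to -0.99 on the log2 scale. CENPK had 7.93, 4.01 and 4.39 FPKM, lower by a similar amount at both doses. CENPH had 12.96, 13.5 and 9.65 FPKM and was lower at 5 μM only. CENPM went the other way, with 10.6, 15.0 and 23.3 FPKM, and its log2 change of 1.12 at 5 μM was the largest rise of a CENP gene. With the length trend removed it was 0.56, below CENPN at 0.89 and CENPL at 0.82.

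The CENP-T, W, S and X subcomplex has histone folds that bind DNA. CENPW rose stepwise, with 26.8, 33.0 and 54.3 FPKM, and at 5 μM it was the most abundant member. CENPW (ENSG00000203760) lies on chromosome 6 from 126340115 to 126348875. Its partner CENPT had 4.65, 5.18 and 4.25 FPKM, within the threshold at both doses. CENPX had 20.9, 24.2 and 24.3 FPKM, also within it. CENPS had 1.97, 0.593 and 2.39 FPKM, lower at 2.5 μM and higher at 5 μM. The CENPS values rested on about 55.2, 21.1 and 100.4 fragments, and its spread was 0.83. The DMSO and 2.5 μM values were the fewest of any compared member in those libraries. A readthrough gene, CENPS-CORT, overlaps CENPS and could take part of its reads, which was not tested. CENPS-CORT was listed at 0.222, 0 and 0 FPKM.

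In the CENP-O, P, Q and U subcomplex, CENPU, a docking site for PLK1, rose, with 30.5, 50.3 and 45.5 FPKM. CENPQ had 10.5, 11.2 and 13.7 FPKM and was higher at 5 μM only. CENPO had 2.94, 2.29 and 2.79 FPKM, and its change was within its spread of 0.56 at both doses. CENPC, the scaffold that joins the CENP-A nucleosome to the network, had 2.43, 2.66 and 1.76 FPKM, and its fall at 5 μM was also within its spread of 0.66. Among the CENP genes outside the kinetochore core, CENPJ, a centriole protein, had 4, 3.23 and 2.88 FPKM. CENPV had 22.8, 31.6 and 36.9 FPKM, highest at the higher dose.

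**Figure D2:**
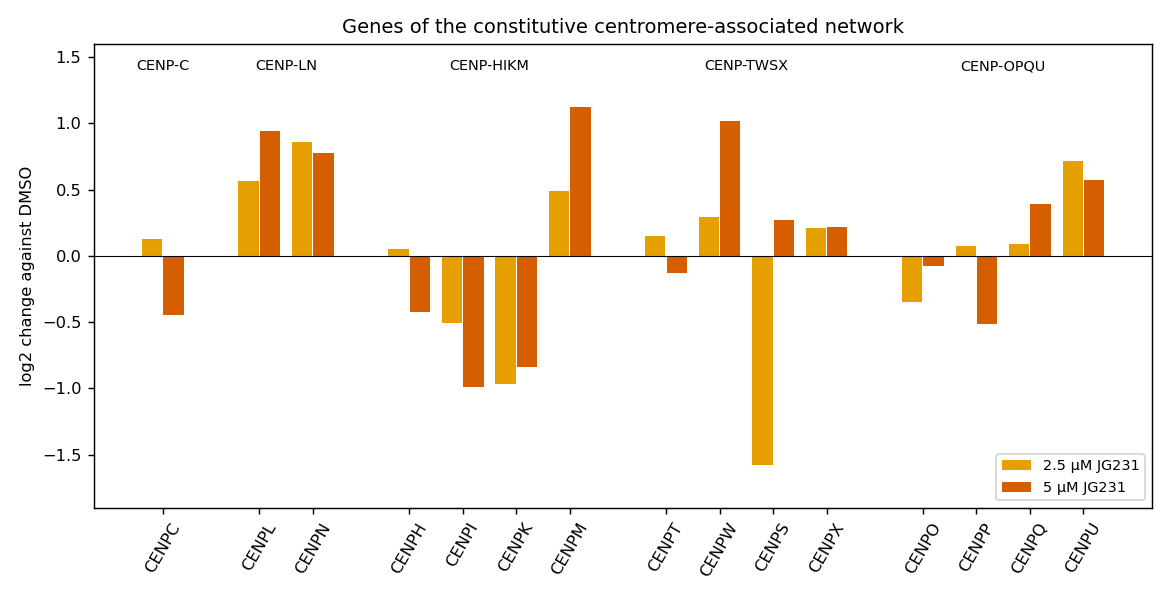
log2 change against DMSO (vertical axis) of the 15 genes of the constitutive centromere-associated network, with bars for 2.5 μM and 5 μM JG231, 1 library each, grouped by subcomplex. CENPL and CENPN rose together, whereas CENPI and CENPK fell and CENPM of the same subcomplex rose. CENPP is drawn although it was below 1 FPKM and was not compared.

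Of the 8 neuronal transport kinesins KIF5A stayed under 1 FPKM in all libraries, with 0.933 in DMSO, 0.557 at 2.5 μM and 0.279 at 5 μM. Of the other 7, 5 were lower and 0 higher at 5 μM, while at 2.5 μM 3 were lower and 2 higher. At 5 and 2.5 μM the shares lower were 71.4% and 42.9%, against 45.1% and 43.4% of all genes and 39.6% and 37.2% of protein-coding genes. The shares higher were 0% and 28.6%, against 36.5% and 36.4% of all genes and 38% and 38.3% of protein-coding genes. Of the 5, KIF3A, KIF3C and KIF5C lay within their own spread, and with the length trend removed 2 of 7 were lower and the median was -0.09. Their median change (log2) was -0.36 at the higher dose and -0.20 at the lower.

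KIF1A, the motor of synaptic and dense-core vesicle precursors, had 6.82, 5.91 and 3.52 FPKM. Only the higher dose was past the threshold, with a log2 change of -0.94 (spread 0.43). KIF1A (ENSG00000130294) lies on the minus strand of chromosome 2 from 240713761 to 240824293. KIF21B, a slow motor that regulates microtubule growth in dendrites, had 4.43, 3.15 and 2.36 FPKM. It fell stepwise, to -0.88 on the log2 scale at 5 μM. Its paralog KIF21A had 2.54, 2.76 and 2.80 FPKM, within the threshold at both doses.

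The kinesin-1 heavy chains, which carry mitochondria and many vesicles, differed in level by far more than they changed. KIF5B, the form that most cells use, had 49.3, 59.5 and 43.0 FPKM. It was the second most abundant member in DMSO, and was higher at 2.5 μM and within the threshold at 5 μM. KIF5C, a neuronal form, had 2.44, 2.02 and 1.61 FPKM, and its log2 change of -0.57 at 5 μM was within its spread of 0.76. Of the kinesin-2 subunits, KIF3A, which serves cilia as well as axons, had 6.80, 4.58 and 5.27 FPKM. KIF3C, a neuron-enriched partner of KIF3A, had 2.20, 3.02 and 1.69 FPKM and moved in opposite directions at the doses. Both of its changes were within its spread of 0.69.

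Mitotic kinesins and CENP genes were then set beside the transport kinesins. The median log2 change of the 31 mitotic kinesins and CENP genes compared was -0.13 at 5 μM and -0.08 at 2.5 μM. It was above that of the transport kinesins by 0.24 at 5 μM and 0.13 at 2.5 μM, and no replicates exist against which to judge these differences. The mitotic kinesins alone, at -0.38, were below the transport kinesins, at -0.20, at 2.5 μM, where the CENP genes were at 0.10. Of these 31 genes 11 were higher and 12 lower at 5 μM. These were 35.5% and 38.7%, against 36.5% and 45.1% of all genes, and near the 38% and 39.6% of protein-coding genes. With the trend of transcript length removed, the difference was -0.01 at 5 μM and -0.31 at 2.5 μM. Summed levels were 172, 166 and 169 FPKM for the mitotic kinesins. For the transport kinesins they were 75.5, 81.5 and 60.5 FPKM, and most of each sum was KIF5B.

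**Figure D3:**
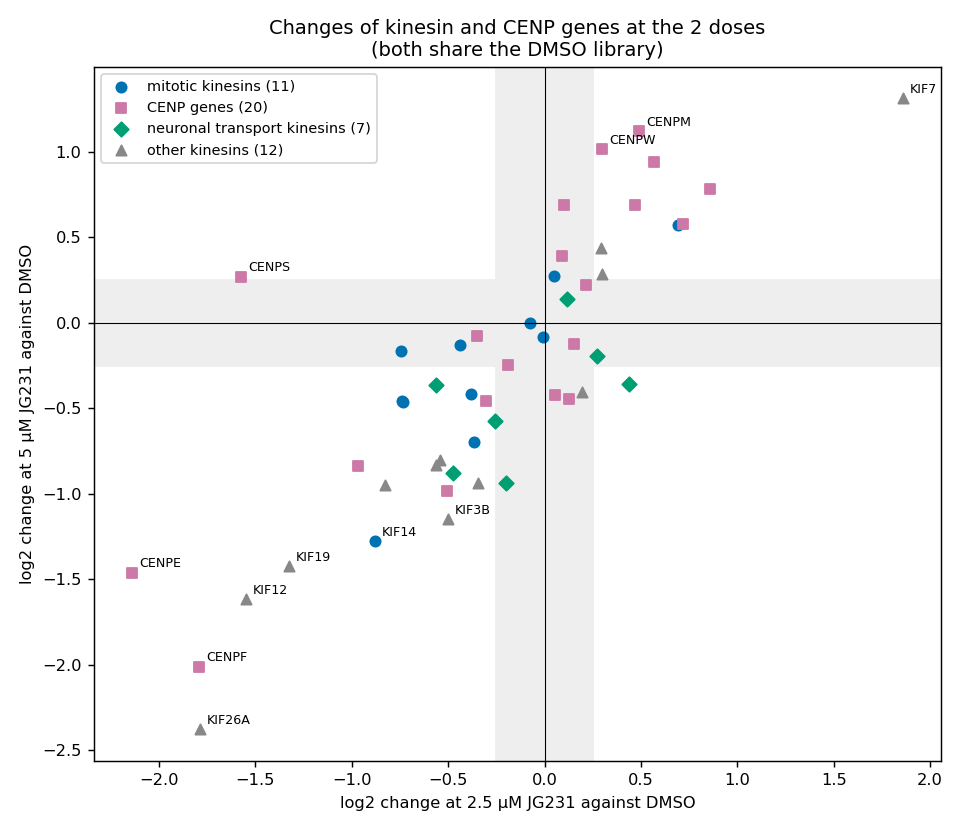
log2 change at 2.5 μM (horizontal) and 5 μM JG231 (vertical) against the same DMSO library for the 50 members compared at both doses, with grey bands for changes up to 0.25. CENPF, CENPE, KIF26A, KIF12 and KIF19 lie far into the lower left, KIF7 is alone at the upper right, and CENPS lies in opposite directions at the doses.

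The other 21 kinesins held the largest rise at both doses and the largest fall at 5 μM, while CENPE fell most at 2.5 μM. Of them 13 were compared at 5 μM, with 9 lower and 4 higher, and 12 at 2.5 μM, with 8 lower and 3 higher. The shares lower were 69.2% and 66.7%, against 45.1% and 43.4% of all genes, and the shares higher 30.8% and 25%, against 36.5% and 36.4%. With the length trend removed 8 were lower and 4 higher at 5 μM. KIF26A, an atypical kinesin without ATPase activity that acts in enteric neuron development, was the third most abundant member in DMSO. It had 47.9, 13.8 and 9.14 FPKM, log2 changes of -1.79 and -2.38 (spread 0.25). The 95% counting interval at 5 μM was -2.47 to -2.31. KIF26A (ENSG00000066735) lies on chromosome 14 from 104136454 to 104180894.

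KIF12, a kinesin of epithelial tissues, had 4.07, 1.33 and 1.26 FPKM. KIF19, which limits the length of motile cilia, had 13.8, 5.45 and 5.08 FPKM. For both, the treated libraries were close to each other and well under DMSO, with log2 changes at 5 μM of -1.62 and -1.42. KIF7, the cilium tip kinesin that regulates GLI factors in Hedgehog signalling, had 2.47, 9.23 and 6.30 FPKM. It was the largest rise, by 1.86 and 1.31 on the log2 scale (spread 0.41), and higher at the lower dose. Its locus on chromosome 15, from 89608789 to 89663086, overlaps TICRR on the opposite strand. Since use of the strand in counting is not stated, reads of overlapping genes might be mixed. KIF27, a relative of KIF7, had 1.25, 1.55 and 1.72 FPKM, within its spread of 0.91. KIF1C, a motor of dense-core vesicles and focal adhesion precursors, had 6.69, 8.25 and 8.16 FPKM, within its spread of 0.33. The rest of the kinesins called at 5 μM, KIF1B, KIF2A, KIF3B, KIF13B, KIF16B and KIF24 as lower and KIF9 as higher, had log2 changes from -1.15 to 0.48.

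In all, 10 members stayed at or under 1 FPKM in every library, and 4 of these were listed at 0 throughout, KIF2B, KIF4B, KIF13A and KIF25. KIF4B is an intronless copy of KIF4A and could share its reads. The other low members were CENPP, KIF5A, KIF6, KIF17, KIF26B and KIF28P.

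Length moved with the changes of most groups. The Spearman correlation between canonical transcript length and the change was -0.56 at 5 μM and -0.33 at 2.5 μM over the 51 and 50 members. It had the opposite sign among the 13 and 12 other kinesins, with 0.10 and 0.21. Among the 31 mitotic kinesins and CENP genes it was -0.70 and -0.53. Over 11836 and 11809 protein-coding genes it was -0.35 and -0.24. These correlations are across genes of the same libraries, which are not independent. Of the 9 members with transcripts under 2000 bp, 6 were higher and 2 lower at 5 μM. Of the 29 with 4000 bp or more, 3 were higher and 21 lower. The corresponding medians were 0.39 and -0.46, and became 0.05 and -0.22 with the trend of protein-coding genes subtracted.

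The subtraction shrank the falls of long transcripts. CENPF, whose transcript has 10290 bp, went from -2.01 to -1.42 at 5 μM. CENPE, with 8541 bp, went from -1.46 to -0.96, KIF26A, with 6889 bp, from -2.38 to -1.97, and KIF14, with 7291 bp, from -1.28 to -0.84. CENPK, with a short transcript of 1731 bp, moved further down, from -0.84 to -1.18. CENPW, with 809 bp, went from 1.02 to 0.41 at the higher dose and from 0.30 to -0.12 at the lower. CENPM, with 938 bp, went from 1.12 to 0.56 at 5 μM, and CENPA, with 1389 bp, from 0.69 to 0.26. The higher calls of CENPQ, CENPV and KIF2C at 5 μM ended, with 0.39, 0.69 and 0.28 becoming 0.05, 0.19 and 0.19. The lower calls of CENPC, CENPJ, KIF15, KIF2A, KIF3A, KIF3C and KIF5C at 5 μM ended too. CENPB, CENPT and CENPX became lower there, at -0.32, -0.28 and -0.40. CENPS turned from higher to lower, from 0.27 to -0.30, and KIF21A became higher, at 0.51. CENPL went from 0.94 to 0.82 and CENPN from 0.78 to 0.89. KIF1A went from -0.94 to -0.40 at 5 μM, and KIF21B from -0.88 to -0.34. The part of transcript length in each result was not tested beyond this subtraction.

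**Figure D4:**
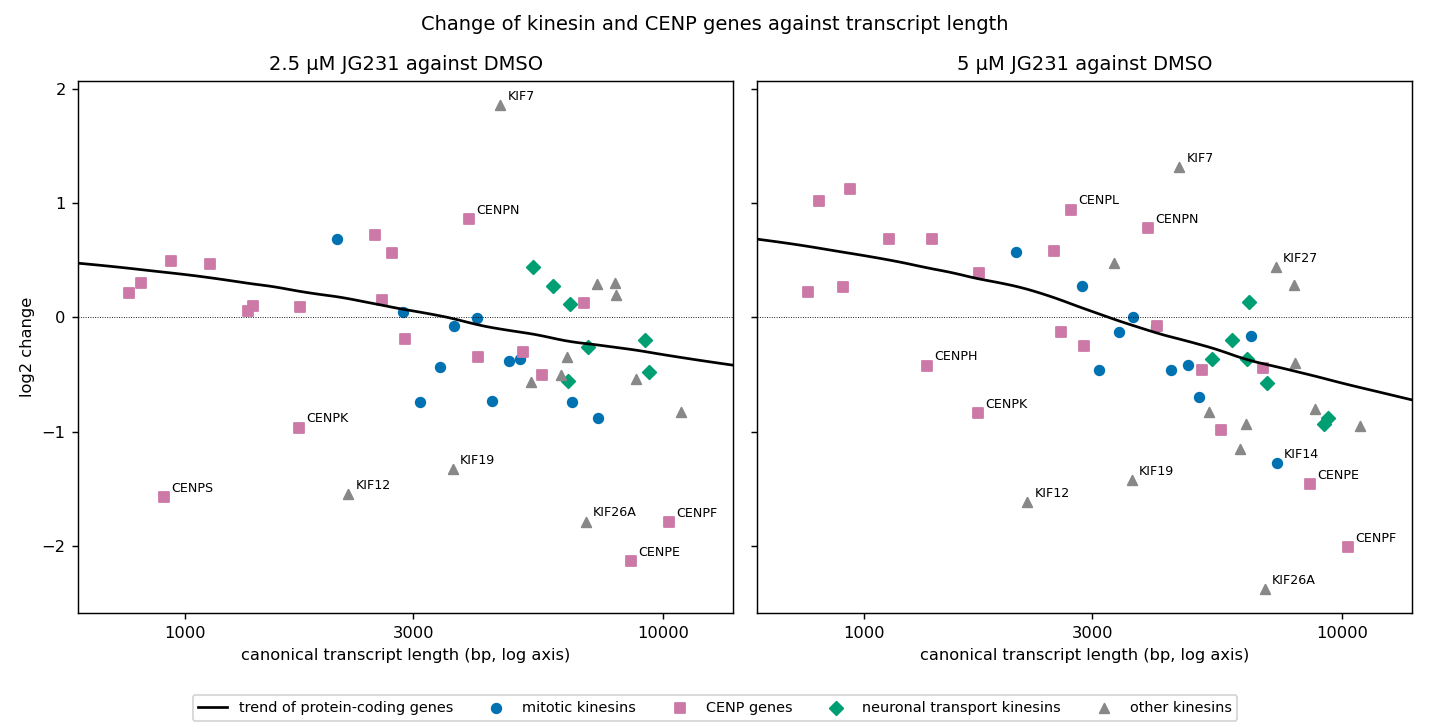
log2 change (vertical) against canonical transcript length (bp, log axis) at 2.5 μM (left) and 5 μM JG231 (right) for the members compared, with the lowess trend of protein-coding genes as a black line. The line is above 0 for short transcripts and below it for long ones. CENPH and CENPK are short but lie well under the line at 5 μM, and CENPF, KIF26A, KIF12, KIF19 and KIF7 also lie far from it.

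Genes that work with the members were counted in the same way. Of 24 outer kinetochore and checkpoint genes, 10 were higher and 6 lower at 5 μM, and 10 were higher and 7 lower at 2.5 μM. At 5 μM 41.7% were higher and 25% lower, against 38% and 39.6% of protein-coding genes. At 2.5 μM the shares were 41.7% and 29.2%, against 38.3% and 37.2%. With the length trend removed 9 were higher and 9 lower at each dose. PMF1, a subunit of the MIS12 complex, had 7.87, 29.8 and 34.3 FPKM. ZW10, which recruits dynein to kinetochores, had 9.60, 15.6 and 21.6 FPKM, and MAD1L1, a checkpoint scaffold, had 3.80, 6.54 and 7.29 FPKM. KNL1, the docking platform of the checkpoint, was on the other side, with 2.75, 2.28 and 1.15 FPKM. KNTC1, a partner of ZW10 in the same complex, had 12.6, 6.72 and 6.60 FPKM, and NUF2, a microtubule-binding subunit of the NDC80 complex, had 27.7, 18.7 and 17.7 FPKM. ZW10 and KNTC1, which share a complex, were thus on opposite sides.

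Among the 5 genes for CENP-A loading and CENP-R, 3 were higher and 2 lower at 5 μM, and 2 were higher and 3 lower at 2.5 μM. The shares higher and lower at 5 μM were 60% and 40%, against 36.5% and 45.1% of all genes. At 2.5 μM they were 40% and 60%, against 36.4% and 43.4%. MIS18A, which licenses loading, had 13.2, 20.2 and 21.4 FPKM, and HJURP, the CENP-A chaperone, had 17.4, 23.9 and 20.8 FPKM. ITGB3BP, which encodes CENP-R, had 14.98, 8.78 and 8.02 FPKM. Of 16 partners of the mitotic kinesins 15 were compared, and 4 were higher and 5 lower at 5 μM, and 3 were higher and 3 lower at 2.5 μM. At 5 μM these were 26.7% and 33.3%, against 38% and 39.6% of protein-coding genes. At 2.5 μM both shares were 20%, against 38.3% and 37.2%. AURKB, the kinase that KIF20A helps to place, had 17.6, 22.3 and 28.004 FPKM, and its complex partner BIRC5 had 17.6, 18.99 and 26.1 FPKM. PLK1 had 16.1, 18.2 and 23.4 FPKM. CIT, a kinase bound by KIF14, had 4.62, 3.37 and 2.37 FPKM, HMMR, a spindle protein, had 28.3, 12.7 and 15.3 FPKM, and CCNB1, the mitotic cyclin, had 48.9, 35.3 and 29.3 FPKM.

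Of 21 transport adaptors and dynein genes 20 were compared at 5 μM, with 7 higher and 7 lower, and 19 at 2.5 μM, with 5 higher and 4 lower. At 5 μM both shares were 35%, near the 38% and 39.6% of protein-coding genes. At 2.5 μM 26.3% were higher and 21.1% lower, against 38.3% and 37.2%. KLC2, a kinesin-1 light chain, had 15.1, 26.8 and 31.4 FPKM, and the dynein light intermediate chain DYNC1LI1 had 8.81, 17.1 and 17.6 FPKM. KLC3, also a light chain, passed 1 FPKM only at 5 μM, with 0.697, 0.779 and 1.71 FPKM. The dynein heavy chain DYNC1H1, a very long transcript, had 11.9, 5.79 and 5.16 FPKM, and its log2 change of -1.19 at 5 μM became -0.32 with the length trend removed. MAPK8IP3, a kinesin-1 adaptor, had 12.3, 9.68 and 8.43 FPKM, and DCTN1, the large dynactin subunit, had 7.51, 6.94 and 5.04 FPKM. The light chains KLC1 and KLC4 and the dynein chain DYNC1LI2 were within the threshold at 5 μM.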

How the data were processed

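RNA-seq of H660 cells was analysed for 3 libraries, 1 per condition, grouped by their titles. Per the paper's methods, the authors aligned reads with HISAT, quantified genes with StringTie and deposited FPKM. The submitters' processing notes also name HISAT2, featureCounts, GRCh38 and hg38, with no versions. The annotation release and the use of strand in counting are not given in the sources used here. The methods describe 1 μg of input RNA and the labels a smaller amount.

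Members, gene lists and tests were chosen with earlier results of these data known. All 61 members matched GENCODE release 44 by identifier, which gave coordinates and canonical transcript lengths. Another gene overlapped 35 members on the opposite strand and 13 on the same strand. Fragments were read from the steps of FPKM times exon length in genes with 1 transcript, where 90.3%, 87.9% and 86.4% of genes under 50 fragments fell within 0.1 of a whole number in DMSO, 2.5 μM and 5 μM. They are approximate for genes with several transcripts, and compared members had 21.1 to 9277 in a library. No count model was applied to FPKM.

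The length trend was a lowess fit (fraction 0.3) of the change on log2 canonical length over protein-coding genes. The spread was the scaled median absolute deviation of the log2 difference between the JG231 libraries. All mitotic kinesins, CENP genes and transport kinesins above 1 FPKM are named, with the 3 largest rises and falls of the other kinesins and of each further list at 5 μM with the same sign at both doses. Apart from KIF3B, set beside KIF3A, other members are named only to account for them. Further genes were chosen after their values were seen. Some genes of the further lists are not reported here. Alternatives were pseudocounts of 1 and 0.01, expression filters, rescaling, centring, removal of the length trend, omission of genes listed at 0 and a threshold of 1. Scripts were tested on simulated data. The lowess fit came from statsmodels 0.14.6, the counting intervals from scipy 1.17.1 and the plots from matplotlib 3.10.9, all under Python 3.11.15.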

Additional observations from a re-analysis of the deposited data

How the results depend on the processing

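With 1 library per condition these values limit the reading to differences between libraries, and no paired analysis was possible because no condition has a second sample. Of 760 alternative values of single genes, 698 stayed within the spread of the gene from the reported value. Medians of lists have no error of their own here and are given by their range. Over the alternatives the median of the mitotic kinesins ran from -0.54 to -0.06 (5 μM) and from -0.67 to -0.27 (2.5 μM). That of the CENP genes ran from -0.30 to 0.48 and from -0.19 to 0.18, so its sign depended on the processing. That of the transport kinesins ran from -0.84 to -0.09 and from -0.51 to 0.10.

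Rescaling without mitochondrial and small RNA genes lowered the median of all genes to -0.53 (5 μM) and -0.40 (2.5 μM). Under it the transport kinesin median at 5 μM was -0.84. The mitotic kinesins were then 0 higher and 9 lower at 5 μM, the CENP genes 3 higher at 2.5 μM, and the transport kinesins 0 higher and 5 lower at 2.5 μM. CENPS, KIF1C and KIF2C at 5 μM and KIF5B at 2.5 μM turned to -0.094, -0.092, -0.10 and -0.019. Rescaling to a common sum left 1 mitotic kinesin higher at 5 μM. With the length trend removed the difference between mitotic and CENP genes and transport kinesins was -0.31 at 2.5 μM. There were then 1 mitotic kinesin higher at 5 μM, 1 transport kinesin higher and 2 lower at 5 μM, and 1 lower at 2.5 μM. CENPS and KIF3A at 5 μM turned to -0.30 and 0.0064, and CENPW at 2.5 μM to -0.12.

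With a mean FPKM of at least 5, which tests fewer genes, the CENP median at 5 μM was 0.48. The CENP genes were 3 lower at 5 μM and 2 lower at 2.5 μM, and the transport kinesins 2 lower at 5 μM, and 1 higher and 1 lower at 2.5 μM. With a threshold of 1 the CENP genes were 2 higher and 2 lower at 5 μM, and 0 higher and 3 lower at 2.5 μM. The mitotic kinesins were 0 higher and 1 lower at 5 μM, and 0 and 0 at 2.5 μM. The transport kinesins were 0 lower at 5 μM, and 0 higher and 0 lower at 2.5 μM. Beyond what the rescaling, the length trend and the filters themselves alter, the cause was not tested.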
